A study of Homo sapiens with 17 samples.

Results

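The CDC25 phosphatases CDC25A, CDC25B and CDC25C and the kinases that work against them, WEE1, PKMYT1, CHEK1 and CHEK2, were described in L363, a human multiple myeloma cell line. These are 7 of the 19775 genes measured, and 15 probe sets are annotated to 1 of them and to no other gene. Each gene was read from its probe set with the highest mean over the 17 arrays, and the other probe sets served as a check. CDC25A was selected on its values in these same arrays, because it lay lower under both drugs together than under either drug alone. Its levels are therefore given as a description with no test, and the other 6 genes, which were added as its relatives, were tested with limma across all genes.

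Total RNA was measured after 48 hours on oligonucleotide arrays. Cells received 1 nM rapamycin with 0.5 uM MS275 (the 1 nM combination, 3 arrays), 10 nM rapamycin with 0.5 uM MS275 (the 10 nM combination, 2 arrays), 0.5 uM MS275 alone (3 arrays), 1 nM rapamycin alone (3 arrays), 10 nM rapamycin alone (3 arrays) or no treatment (control, 3 arrays). MS275 inhibits histone deacetylases and rapamycin inhibits the kinase mTOR, and the title of the series concerns joint inhibition of both and the breakdown of MYC. All arrays come from 1 cell line, and the labels do not say whether replicates were separate cultures, so the p-values measure the spread between these arrays, which may be technical.

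Cyclin-dependent kinases are held inactive when WEE1 or PKMYT1 adds phosphates to their ATP-binding loop, and CDC25 phosphatases take those phosphates off. CDC25A acts at the start of DNA synthesis and again at mitosis, while CDC25B and CDC25C are best known for the start of mitosis. After DNA damage or stalled replication, CHEK1 and CHEK2 phosphorylate CDC25 proteins, which leads to the breakdown of CDC25A and to the binding of CDC25C by 14-3-3 proteins. All of these steps act on protein, whereas the arrays measure RNA.

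The cells carried the RNA of plasma cells, from which myeloma arises. The mean log2 signal of 8 plasma cell markers lay between 10.52 and 11.33 on every array, with IRF4 at a mean of 12.49 and SDC1 at 12.28. The means of the B cell, T cell, myeloid, red cell, epithelial and fibroblast markers measured lay between 3.84 and 6.05 on every array. Control replicate 1 and 1 nM combination replicate 1 held a narrower range of values than the rest, with a standard deviation over all probe sets of 2.14 and 2.15, while the other 15 arrays had 2.27 to 2.37, so results that rest on these 2 narrow arrays are given with and without them. In bulk RNA, fewer cells of a kind and less RNA per cell cannot be told apart.

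The promoters of 5 of the 7 genes were found in the RefSeq promoter table (build GRCh38.p14). WEE1 and PKMYT1 were not matched. The 250 bases before each annotated start were searched on both strands for E2F sites (TTTGGCGC, TTTCCCGC, TTTGCCGC or TTTCGCGC), for the CHR element (TTTGAA or TTCGAA) and for CCAAT boxes (CCAAT), which are letters often found before cell cycle genes. The 3 windows of CDC25 genes with an E2F or CHR match are shown, with every match in capitals. The other CDC25B and CDC25C windows held no E2F or CHR match and are not shown. A link between these letters and the changes under the drugs was not tested. The CDC25A window is chr3:48188418-48188667 (minus strand), the CDC25C window is chr5:138331805-138332054 (minus strand) and the CDC25B window is chr20:3796060-3796309 (plus strand).
CDC25A: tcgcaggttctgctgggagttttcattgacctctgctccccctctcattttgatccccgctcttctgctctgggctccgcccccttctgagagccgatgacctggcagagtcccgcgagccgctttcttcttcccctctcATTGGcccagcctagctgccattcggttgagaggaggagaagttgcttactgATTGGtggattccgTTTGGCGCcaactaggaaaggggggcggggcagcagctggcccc
CDC25C: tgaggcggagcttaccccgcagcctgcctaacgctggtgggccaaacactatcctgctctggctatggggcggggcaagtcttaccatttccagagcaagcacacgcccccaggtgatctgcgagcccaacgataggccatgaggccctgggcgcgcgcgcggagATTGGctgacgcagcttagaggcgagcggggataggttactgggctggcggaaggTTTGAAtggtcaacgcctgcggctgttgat
CDC25B: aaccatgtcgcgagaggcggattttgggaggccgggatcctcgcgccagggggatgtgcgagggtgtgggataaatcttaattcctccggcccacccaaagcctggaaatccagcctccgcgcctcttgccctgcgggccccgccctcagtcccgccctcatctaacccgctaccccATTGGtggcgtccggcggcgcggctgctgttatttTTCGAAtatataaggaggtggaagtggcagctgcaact
In CDC25A the E2F letters TTTGGCGC lie 44 to 37 bases before the start, below CCAAT boxes on the opposite strand at 110 to 106 and 58 to 54. In CDC25C the CHR letters TTTGAA lie 30 to 25 bases before the start, with an opposite-strand CCAAT box at 85 to 81. In CDC25B the CHR letters TTCGAA lie 38 to 33 bases before the start, with an opposite-strand CCAAT box at 73 to 69. Over all 35116 windows in the table, 2.79% held an E2F match, 14.3% a CHR match and 32.0% a CCAAT box. Of the 13 windows of the 5 genes, some of which overlap, 1 held an E2F match, 2 a CHR match and 9 a CCAAT box. A match describes the letters and is not evidence of binding.

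Against control, more of the 6 tested genes passed the test under the combinations (3 and 4) than under a single drug (0 or 1), and all that passed were lower. A gene passed when its limma p-value, Benjamini-Hochberg adjusted across the 19775 genes, was below 0.05. Of the 6 tested genes, 3 fell under the 1 nM combination (CDC25B, CDC25C and PKMYT1) and 4 under the 10 nM combination (these and CHEK2). Under 10 nM rapamycin 1 fell (CDC25C), and none passed under MS275 or under 1 nM rapamycin. An unadjusted limma p under 0.05 was held by 2 of the 6 under MS275, 4 under 1 nM rapamycin and 5 under 10 nM rapamycin. It was held by 6 under the 1 nM combination and by 5 under the 10 nM combination, as many as under 10 nM rapamycin. Of all 19775 genes, 2130, 1592, 1376, 2495 and 2804 held it in that order. None of the 6 was higher past the threshold in any of the 5 comparisons. Over all genes, the share that fell was 1.58% under the 1 nM combination, 2.24% under the 10 nM combination, 0.455% under MS275, 0.0809% under 1 nM rapamycin and 0.369% under 10 nM rapamycin. The 5 comparisons share the control arrays. The adjusted threshold is easier to pass where more genes change, so these counts also depend on the other genes. CHEK2 passed under the 10 nM combination at an unadjusted limma p of 0.00124. It did not pass under 10 nM rapamycin, at a smaller unadjusted limma p of 0.000956.

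The median log2 change of the 6 genes against control was -0.44 under MS275, -0.93 under 1 nM rapamycin, -1.03 under 10 nM rapamycin, -1.25 under the 1 nM combination and -1.27 under the 10 nM combination. The same median over all genes lay between -0.12 and 0.02. Genes whose treated arrays all lay below all control arrays numbered 3 of the 6 under MS275, 4 under 1 nM rapamycin, 4 under 10 nM rapamycin, 3 under the 1 nM combination and 5 under the 10 nM combination. The same held for 5.34%, 8.03%, 4.93%, 5.61% and 13% of all genes in that order, and the last share is higher where the treated group holds 2 arrays.

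**Figure D1:**
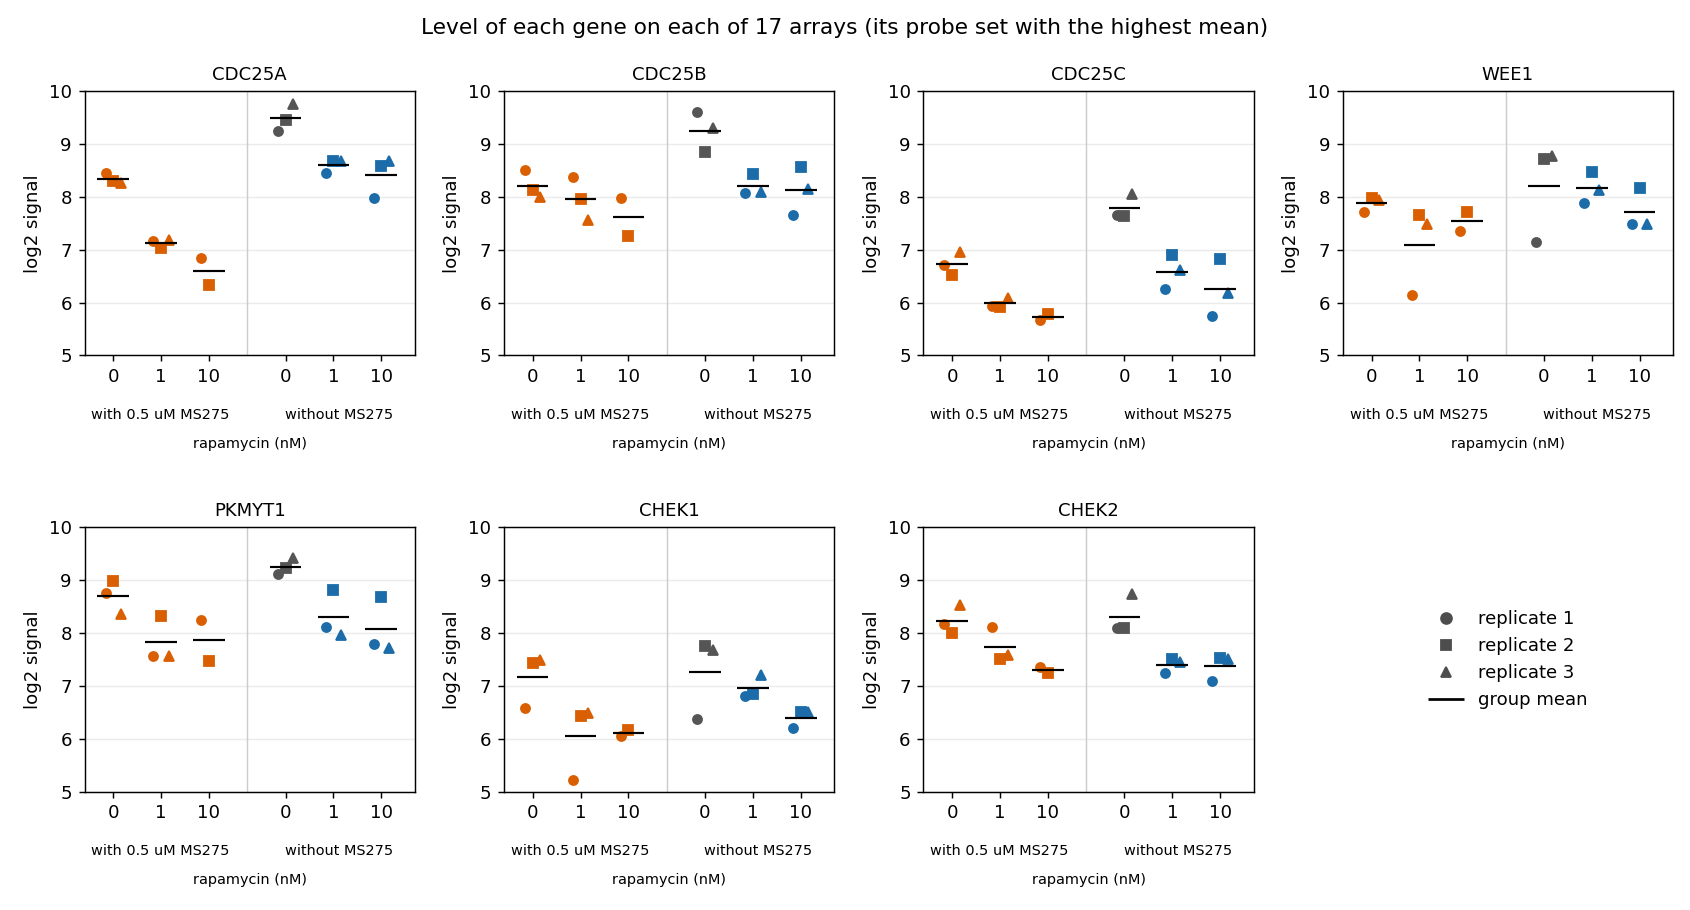
Log2 signal of the 7 genes on each array (points, shaped by replicate) with group means (bars), against the rapamycin dose in nM, with 0.5 uM MS275 on the left of each panel and without it on the right. CDC25A reads 6.85 and 6.34 under the 10 nM combination. For WEE1 and CHEK1, control replicate 1 and 1 nM combination replicate 1 are each the low point of their own group.

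CDC25A, the phosphatase that acts in both the start of DNA synthesis and mitosis, was at its lowest in the combinations and at its highest in control. Its log2 signal was 7.16, 7.03 and 7.19 under the 1 nM combination and 6.85 and 6.34 under the 10 nM combination. It was 8.45, 8.29 and 8.26 under MS275, 8.45, 8.67 and 8.68 under 1 nM rapamycin and 7.98, 8.58 and 8.67 under 10 nM rapamycin, against 9.25, 9.44 and 9.76 in control. The 5 combination arrays lay below all 9 single-drug arrays, and those lay below all 3 control arrays, while the single-drug groups overlapped each other.

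The mean difference of CDC25A from control was -1.15 ± 0.20 under MS275, -0.89 ± 0.20 under 1 nM rapamycin and -1.07 ± 0.20 under 10 nM rapamycin (log2, standard error (SE) of the fit). It was -2.36 ± 0.20 under the 1 nM combination, a level 5.13-fold lower, and -2.89 ± 0.23 under the 10 nM combination, a level 7.40-fold lower. Ranked by how far below control they lay among all 19775 genes, CDC25A stood at 16 in the 1 nM combination and at 10 in the 10 nM combination. The order of the levels was control, 1 nM rapamycin, 10 nM rapamycin, MS275, 1 nM combination and 10 nM combination, and the neighbours among the 3 single drugs did not differ beyond their spread.

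Set against the single drugs, CDC25A differed by -1.21 ± 0.20 between the 1 nM combination and MS275 and by -1.47 ± 0.20 between that combination and 1 nM rapamycin. The 10 nM combination differed by -1.74 ± 0.23 from MS275 and by -1.82 ± 0.23 from 10 nM rapamycin. The interaction, the combination's log2 difference from control less the sum of the single-drug differences, was -0.32 at 1 nM (95% confidence interval -0.94 to 0.29) and -0.67 at 10 nM (-1.32 to -0.01). Without the narrow arrays the interaction was -0.22 at 1 nM and -0.55 at 10 nM. The intervals describe the spread between arrays and are not tests, since the gene was selected on these values.

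Combination arrays all below single-drug arrays were seen in 2 of the 3 CDC25A probe sets. Probe set 204696_s_at read 5.92, 5.55 and 5.12 under the 1 nM combination and 5.53 and 5.43 under the 10 nM combination, against 6.84, 6.21 and 6.61 in control. Its single-drug arrays lay between 5.42 and 6.0, and its combinations differed from their single drugs by -0.03 to -0.29. The 1 nM combination overlapped both of its single drugs, while the 10 nM combination lay below every MS275 and 10 nM rapamycin array. On this probe set the difference from control was already -0.94 under MS275 and -0.99 under 1 nM rapamycin, against -1.03 and -1.07 under the 2 combinations.

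Probe set 1555772_a_at, the dimmest of the 3 with a mean of 4.16, read 3.29, 3.35 and 3.16 under the 1 nM combination and 2.68 and 3.21 under the 10 nM combination. It read 4.25, 4.04 and 3.79 under MS275, 4.95, 4.80 and 5.08 under 1 nM rapamycin and 3.71, 4.22 and 4.09 under 10 nM rapamycin, against 5.26, 5.79 and 4.96 in control. Here too every combination array lay below every single-drug array, but 1 nM rapamycin overlapped control. The interaction was -0.37 at 1 nM and 0.24 at 10 nM on this probe set, and 0.91 and 0.65 on 204696_s_at, so that a difference beyond the sum of the single drugs at 10 nM appeared on the brightest probe set and not on the other two.

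**Figure D2:**
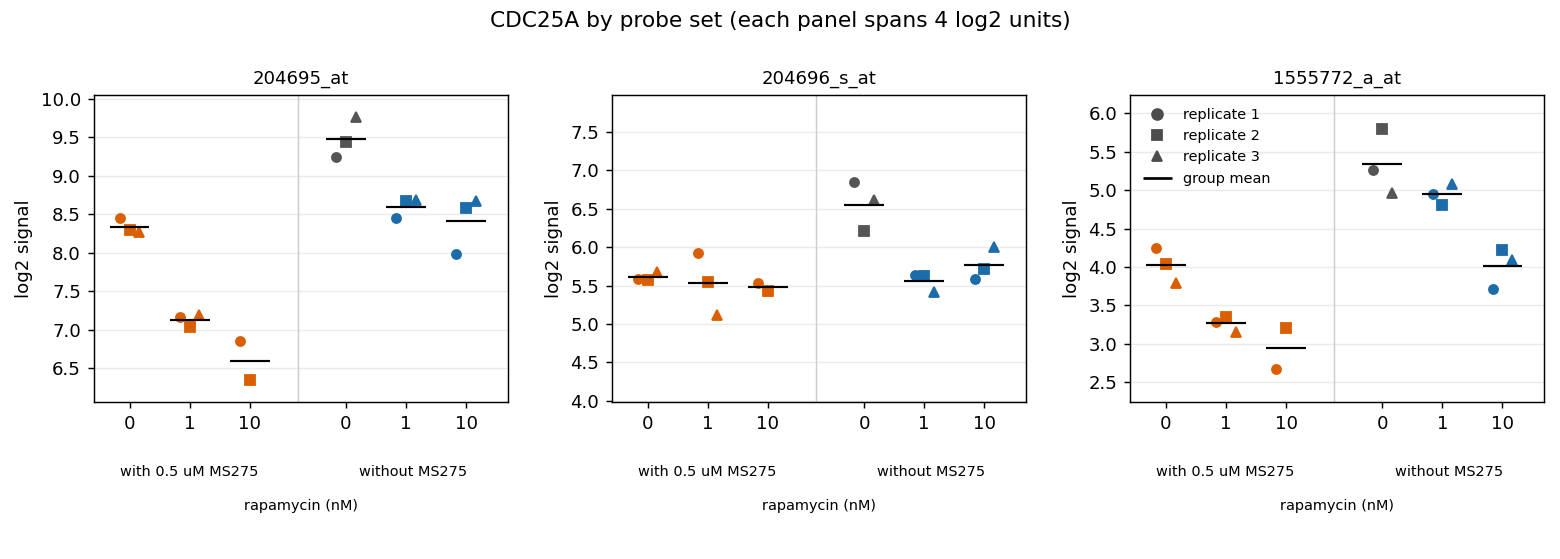
Log2 signal of the 3 CDC25A probe sets on each array (points, shaped by replicate; bars are group means) against the rapamycin dose in nM, with MS275 on the left and without it on the right of each panel, each axis spanning the same 4 log2 units. Combination arrays lie below single-drug arrays on 204695_at and 1555772_a_at, while on 204696_s_at the 1 nM combination overlaps them.

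CDC25C, the phosphatase that activates CDK1 at mitosis and is held by 14-3-3 proteins between divisions, fell under both combinations and under 10 nM rapamycin. Its log2 signal was 5.94, 5.92 and 6.08 under the 1 nM combination and 5.67 and 5.78 under the 10 nM combination. It was 6.70, 6.52 and 6.96 under MS275, 6.25, 6.89 and 6.61 under 1 nM rapamycin and 5.74, 6.83 and 6.19 under 10 nM rapamycin, against 7.66, 7.64 and 8.04 in control. All 14 treated arrays lay below all 3 control arrays.

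The log2 change of CDC25C was -1.80 ± 0.25 under the 1 nM combination (limma adjusted p = 0.00126) and -2.05 ± 0.28 under the 10 nM combination (adjusted p = 0.00102). Under 10 nM rapamycin it fell by 1.53 ± 0.25 (adjusted p = 0.0174), a call lost without control replicate 3, 10 nM rapamycin replicate 1 or 10 nM rapamycin replicate 3 (adjusted p up to 0.102). The difference was -1.05 ± 0.25 under MS275 (adjusted p = 0.0503) and -1.20 ± 0.25 under 1 nM rapamycin (adjusted p = 0.0899). With the replicate number as a block, both passed, at adjusted p = 0.0225 and 0.0401. Probe set 217010_s_at also fell under the combinations, with limma p-values adjusted over all probe sets of 0.00829 and 0.00325. Under 10 nM rapamycin it gave -1.29 and did not pass (limma adjusted p = 0.0671). The dim probe set 216914_at stayed between 3.66 and 4.42 on all arrays.

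CDC25B, a phosphatase that starts CDK1 activation before mitosis, fell under both combinations. Its log2 signal was 8.38, 7.96 and 7.55 under the 1 nM combination and 7.97 and 7.26 under the 10 nM combination. It was 8.50, 8.13 and 7.99 under MS275, 8.07, 8.42 and 8.10 under 1 nM rapamycin and 7.66, 8.56 and 8.15 under 10 nM rapamycin, against 9.60, 8.85 and 9.31 in control. All treated arrays lay below all control arrays, and the 1 nM combination overlapped the single drugs, while the 10 nM combination lay below MS275 and 1 nM rapamycin and overlapped 10 nM rapamycin.

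The log2 change of CDC25B was -1.29 ± 0.29 under the 1 nM combination (limma adjusted p = 0.0253) and -1.64 ± 0.32 under the 10 nM combination (adjusted p = 0.0121). The differences under the single drugs were nearly as large, at -1.05 ± 0.29 under MS275 (adjusted p = 0.0992), -1.05 ± 0.29 under 1 nM rapamycin (adjusted p = 0.227) and -1.13 ± 0.29 under 10 nM rapamycin (adjusted p = 0.139). The 1 nM combination call was lost without control replicate 1 or 3, or without 1 nM combination replicate 2 or 3 (adjusted p up to 0.117), and after quantile normalization (adjusted p = 0.0688). The 10 nM combination call was lost without its replicate 2 (adjusted p = 0.183).

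PKMYT1, the membrane-bound kinase that inhibits CDK1, was read from its single probe set, which is of a type that may also bind related transcripts. Its log2 signal was 7.57, 8.32 and 7.57 under the 1 nM combination and 8.25 and 7.48 under the 10 nM combination. It was 8.76, 8.98 and 8.37 under MS275, 8.11, 8.82 and 7.97 under 1 nM rapamycin and 7.80, 8.68 and 7.72 under 10 nM rapamycin, against 9.11, 9.23 and 9.42 in control. Every treated array lay below every control array, and replicate 2 was the highest of its group under MS275, both rapamycin doses and the 1 nM combination.

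PKMYT1 had a log2 change of -1.43 ± 0.32 under the 1 nM combination (limma adjusted p = 0.0251) and of -1.39 ± 0.36 under the 10 nM combination (adjusted p = 0.0483). It differed from control by -0.55 ± 0.32 under MS275 (adjusted p = 0.622), -0.95 ± 0.32 under 1 nM rapamycin (adjusted p = 0.393) and -1.19 ± 0.32 under 10 nM rapamycin (adjusted p = 0.184). Without the 2 narrow arrays the changes were -1.38 and -1.46, and neither passed (adjusted p = 0.0977 and 0.0642). The 1 nM combination call was also lost without control replicate 2 or 3, or without 1 nM combination replicate 1 or 3 (adjusted p up to 0.104). The 10 nM combination call was lost on leaving out 13 of the 17 arrays, each in turn (adjusted p up to 0.404).

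WEE1, the nuclear kinase that inhibits CDK1 and CDK2, did not pass the test in any comparison. Its log2 signal was 6.13, 7.66 and 7.48 under the 1 nM combination and 7.35 and 7.72 under the 10 nM combination. It was 7.72, 7.97 and 7.93 under MS275, 7.89, 8.47 and 8.12 under 1 nM rapamycin and 7.48, 8.16 and 7.49 under 10 nM rapamycin, against 7.14, 8.71 and 8.77 in control. Control replicate 1, one of the 2 narrow arrays, lay below every MS275 and rapamycin array, so that control overlapped every treatment.

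WEE1 differed from control by -1.12 ± 0.43 under the 1 nM combination (limma adjusted p = 0.254) and by -0.68 ± 0.48 under the 10 nM combination (adjusted p = 0.602). Without the 2 narrow arrays it passed in both, at -1.17 and -1.21 (adjusted p = 0.0251 and 0.0165), and with the replicate number as a block the 1 nM combination also passed (adjusted p = 0.0463). The single drugs gave -0.34 ± 0.43, -0.05 ± 0.43 and -0.50 ± 0.43 for MS275, 1 nM rapamycin and 10 nM rapamycin, and -0.87, -0.58 and -1.03 without the narrow arrays. The other WEE1 probe set, 215711_s_at, gave -0.94 and -1.28 under the 1 nM and 10 nM combinations, neither past the threshold (adjusted p = 0.230 and 0.10). On it MS275 gave -0.93, 1 nM rapamycin -0.88 and 10 nM rapamycin -0.86, and all arrays of MS275 and of 1 nM rapamycin lay below control. The 1 nM combination differed from 1 nM rapamycin by -0.06 on it, against -1.07 on the brighter probe set, where the difference without the narrow arrays was -0.59.

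CHEK1, the kinase that answers stalled replication forks, gave different results on its 4 probe sets. On 238075_at, the brightest, the log2 signal was 5.22, 6.44 and 6.50 under the 1 nM combination and 6.06 and 6.17 under the 10 nM combination. It was 6.58, 7.43 and 7.50 under MS275, 6.81, 6.85 and 7.20 under 1 nM rapamycin and 6.20, 6.50 and 6.51 under 10 nM rapamycin, against 6.38, 7.75 and 7.68 in control. The low arrays of control, MS275 and the 1 nM combination were all replicate 1, and 2 of these are the narrow arrays.

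On that probe set CHEK1 differed from control by -1.22 ± 0.39 under the 1 nM combination (limma adjusted p = 0.136) and by -1.15 ± 0.43 under the 10 nM combination (adjusted p = 0.203). Without the narrow arrays it passed in both, at -1.25 and -1.60 (adjusted p = 0.0243 and 0.0051), and at -1.31 under 10 nM rapamycin (adjusted p = 0.0291). With the replicate number as a block the 1 nM combination passed (adjusted p = 0.0121). The differences with all arrays were -0.10 ± 0.39 under MS275, -0.32 ± 0.39 under 1 nM rapamycin and -0.87 ± 0.39 under 10 nM rapamycin, none past the threshold, and the first 2 were -0.55 and -0.76 without the narrow arrays.

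Probe set 205393_s_at of CHEK1 read 4.83, 4.59 and 4.83 under the 1 nM combination and 4.38 and 4.62 under the 10 nM combination, against 5.74, 6.52 and 7.26 in control. It fell in both, with log2 changes of -1.76 and -2.01 and limma p-values adjusted over all probe sets of 0.0111 and 0.00912. Probe set 205394_at gave -1.57 and -1.66 (adjusted p = 0.151 and 0.161). Probe set 229423_at gave 0.02 and 0.12, with control replicate 1 its highest array at 7.18.

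CHEK2, the kinase that answers DNA breaks, lay below control under rapamycin alone and overlapped it under MS275 alone. Its log2 signal was 8.12, 7.52 and 7.59 under the 1 nM combination and 7.36 and 7.24 under the 10 nM combination. It was 8.18, 8.0 and 8.53 under MS275, 7.24, 7.51 and 7.44 under 1 nM rapamycin and 7.09, 7.53 and 7.51 under 10 nM rapamycin, against 8.09, 8.10 and 8.74 in control. The MS275 arrays overlapped control, both rapamycin doses lay below all control arrays, and 1 nM combination replicate 1 reached the control range.

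CHEK2 fell by 1.01 ± 0.25 under the 10 nM combination (limma adjusted p = 0.0421). The difference was nearly as large under each dose of rapamycin alone, at -0.91 ± 0.23 for 1 nM (adjusted p = 0.164) and -0.94 ± 0.23 for 10 nM (adjusted p = 0.109). It was -0.57 ± 0.23 under the 1 nM combination (adjusted p = 0.274; -0.87 and 0.0737 without the narrow arrays) and -0.08 ± 0.23 under MS275 (adjusted p = 0.951). The 10 nM combination call was lost on leaving out 10 of the 17 arrays, each in turn (adjusted p up to 0.261).

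**Figure D3:**
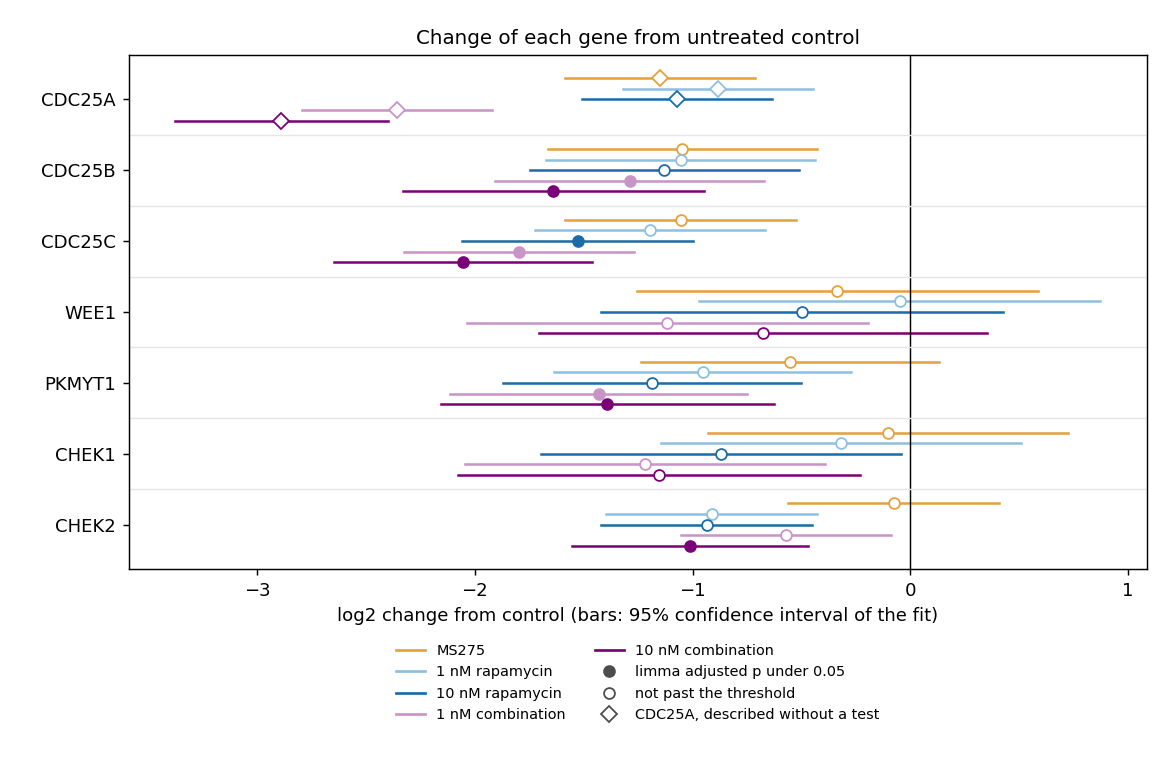
Log2 change of each gene against control (points) with the 95% confidence interval of the fit (bars), for the 5 treatments. Filled points passed a limma adjusted p of 0.05. Diamonds are CDC25A, described without a test, which lies at -2.36 and -2.89 under the combinations. There it lies further left than the other 6 genes, but it was selected for low combination values on the probe set drawn. On its probe set 1555772_a_at these changes were -2.07 and -2.39, also further left than the 6. On 204696_s_at they were -1.03 and -1.07, smaller than those drawn for CDC25B, CDC25C and PKMYT1.

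Between a combination and a single drug, none of the 6 tested genes passed the test. On 204695_at, the probe set on which it was selected, CDC25A differed more than its relatives on their brightest probe sets in each of the 4 comparisons. Between the 1 nM combination and 1 nM rapamycin, CHEK1 differed by -1.48 on its probe set 205394_at, about as much as CDC25A (-1.47). On 204696_s_at the differences of CDC25A were -0.08, -0.03, -0.13 and -0.29. On 1555772_a_at CDC25A differed by -0.76 between the 1 nM combination and MS275. With all arrays, this was smaller than the differences of CHEK1 (-1.12), PKMYT1 (-0.88) and WEE1 (-0.78). Without the narrow arrays, CHEK1, PKMYT1 and WEE1 differed by -0.70, -0.75 and -0.30. The limma adjusted p-values of the 6 lay between 0.257 and 1.00 in these 4 comparisons, although 4 of 6 had an unadjusted p under 0.05 for the 1 nM combination against MS275, 3 against 1 nM rapamycin, 4 for the 10 nM combination against MS275 and 0 against 10 nM rapamycin. Of all 19775 genes, 878, 2454, 890 and 1452 had an unadjusted limma p under 0.05 in the same order. At the adjusted threshold, the share of all genes that fell was 0.101% and 0.293% for the 1 nM combination against MS275 and against 1 nM rapamycin. It was 0.248% and 0.137% for the 10 nM combination against MS275 and against 10 nM rapamycin. The median log2 difference of the 6 genes in the same order was -0.76, -0.54, -0.89 and -0.25, against 0.04, 0.12, -0.04 and -0.01 over all genes.

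The confidence intervals are wide, and some hold both small differences and ones as large as the CDC25A estimates. CDC25C differed by -0.74 (95% confidence interval -1.27 to -0.21) between the 1 nM combination and MS275 and by -0.999 (-1.59 to -0.41) between the 10 nM combination and MS275. CDC25B differed by -0.24 (-0.86 to 0.37; -0.45 without the narrow arrays) and -0.59 (-1.28 to 0.10) in the same comparisons, where CDC25A differed by -1.21 (-1.64 to -0.77) and -1.74 (-2.23 to -1.25).

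Among the kinases, CHEK1 differed by -1.12 (-1.94 to -0.29) between the 1 nM combination and MS275, and PKMYT1 by -0.88 (-1.56 to -0.19). The CHEK1 difference was -0.70 without the narrow arrays, of which 1 nM combination replicate 1 enters it. CHEK2 had a positive difference between the 1 nM combination and 1 nM rapamycin, at 0.34 (-0.14 to 0.83), with every 1 nM combination array above every 1 nM rapamycin array, and it was 0.15 without the narrow arrays. At 10 nM that difference was -0.08 (-0.62 to 0.46), and the groups overlapped.

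Genes whose combination arrays all lay below the single-drug arrays numbered 4 of the 6 for the 1 nM combination against MS275, against 3.48% of all genes, and 3 against 1 nM rapamycin, against 6.8% of all genes. For the 10 nM combination they numbered 5 of the 6 against MS275, where the share over all genes was 11.8%, and 1, CHEK1, against 10 nM rapamycin, where it was 11.1%. CDC25A was below in all 4, as the selection required. The test of the difference between CDC25A and its relatives was not made, because CDC25A was chosen for its values.

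**Figure D4:**
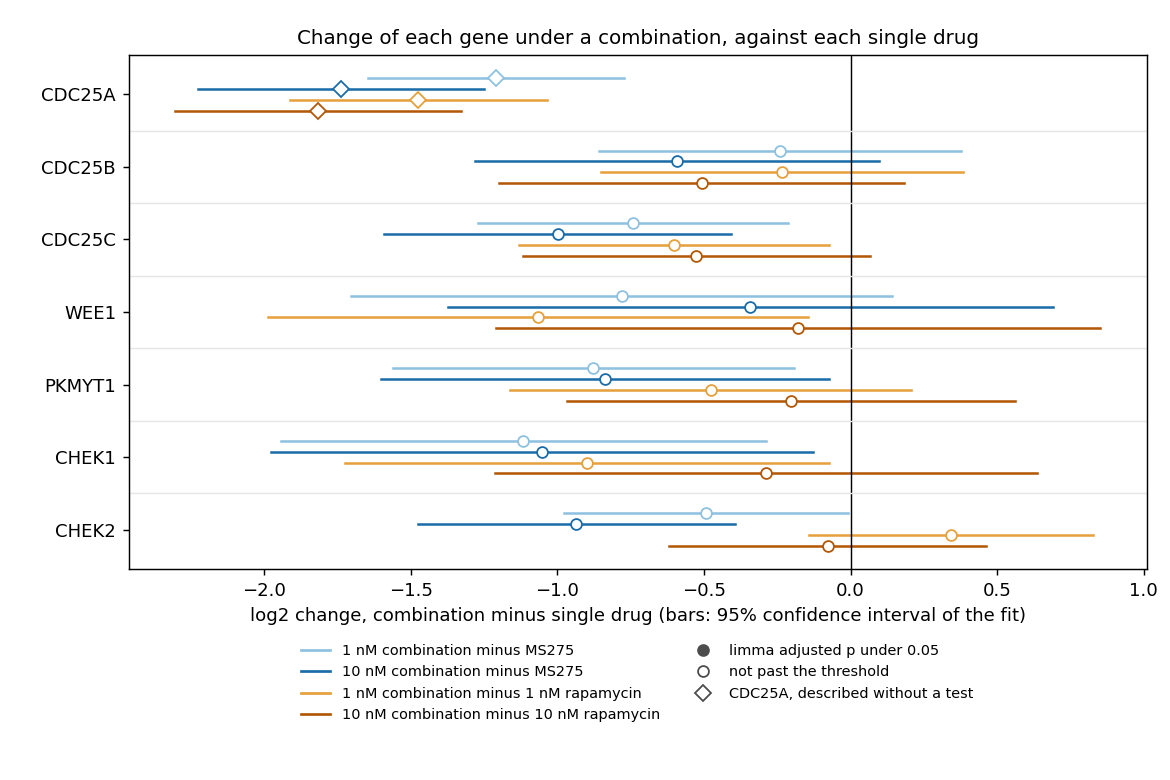
Log2 difference of each gene between a combination and each of its single drugs (points) with the 95% confidence interval of the fit (bars). CDC25A (diamonds, no test) lies between -1.21 and -1.82 in the 4 comparisons, and no other gene passed the limma threshold, so all its points are open.

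The dose of rapamycin and the interaction of the drugs gave no call among the 6 genes. Between 10 and 1 nM rapamycin, their log2 differences lay between -0.55 (CHEK1) and -0.02 (CHEK2), and between the 10 and 1 nM combinations they lay between -0.44 (CHEK2) and 0.44 (WEE1). Without the narrow arrays these were -0.25 for CHEK2 and -0.04 for WEE1, and WEE1 gave -0.34 on 215711_s_at. The interaction was 0.81 ± 0.41 for CDC25B, -0.80 ± 0.55 for CHEK1 and -0.73 ± 0.61 for WEE1 at 1 nM. Without the narrow arrays it was 0.43 for CDC25B, 0.064 for CHEK1 and 0.28 for WEE1, so that the sign turned in both kinases. At 10 nM it was 0.54 ± 0.43 for CDC25B and 0.53 ± 0.37 for CDC25C. In these 4 comparisons limma called 0% of all genes lower at an adjusted p under 0.05, while 24, 152, 916 and 194 genes had an unadjusted p under 0.05, and 0 of the 6. CDC25A differed by -0.19 ± 0.20 between the rapamycin doses and by -0.53 ± 0.23 between the combinations, where its 10 nM arrays lay below its 1 nM arrays.

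Other genes of the same control system were counted from 6 lists, beside the 1.58% of all genes that fell under the 1 nM combination and the 2.24% under the 10 nM combination. Of 11 listed cyclin-dependent kinases, cyclins and partner proteins, 2 fell under the 1 nM combination and 3 under the 10 nM combination. In the same list 1 fell under 10 nM rapamycin and none under MS275 or 1 nM rapamycin. The median log2 change of this list was -1.13 under the 10 nM combination, against -0.08 over all genes. CCNB2, a cyclin that partners CDK1, had 7.39 and 8.13 under the 10 nM combination, against 9.95, 10.01 and 10.94 in control, a log2 change of -2.54 ± 0.39 (limma adjusted p = 0.00253).

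CCNB1, the main mitotic cyclin, had 7.13 and 7.63 under the 10 nM combination, against 8.32, 10.03 and 10.20 in control, a log2 change of -2.13 ± 0.50 (limma adjusted p = 0.0313). CDK2, the kinase of the start of DNA synthesis, had 8.28 and 8.41, against 9.11, 9.36 and 9.95, a log2 change of -1.13 ± 0.23 (adjusted p = 0.0143). In all 3 genes the groups did not overlap. CDK1 itself did not pass, with a log2 change of -1.18 ± 0.59 (adjusted p = 0.401).

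Of 13 genes measured among the 14 listed for checkpoint signalling above CHEK1 and CHEK2, 2 fell under the 1 nM combination, 3 under the 10 nM combination and none under single drugs. CLSPN, which brings CHEK1 to its activating kinase, fell by 1.58 ± 0.27 under the 10 nM combination (limma adjusted p = 0.00495). TIMELESS, a replication fork protein, fell by 1.37 ± 0.27 (adjusted p = 0.0120), and TP53BP1, which binds at DNA breaks, fell by 0.96 ± 0.24 (adjusted p = 0.0467). The list's median change was -0.45, against -0.08 over all genes.

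Of 10 genes of the mitotic entry switch, PLK1 and AURKA fell under both combinations, under MS275 and under 10 nM rapamycin, and the other 8 passed in none of these. PLK1, which phosphorylates CDC25C and WEE1, fell by 2.47 ± 0.34 under the 10 nM combination (limma adjusted p = 0.00106). AURKA, the kinase that activates PLK1, fell by 2.12 ± 0.29 (adjusted p = 0.00115). The list's median change was -0.43, against the same -0.08, so these 2 stand below the rest of the list.

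None of 11 genes for the turnover of CDC25A and WEE1 and none of 7 14-3-3 proteins passed the limma test against control, and their median changes under the 10 nM combination were -0.13 and 0.29. Of 12 other dual-specificity phosphatases, DUSP4 fell under the 1 nM combination (log2 change -1.12 ± 0.27, adjusted p = 0.0395) and the list's median under the 10 nM combination was -0.34. No gene of the 6 lists was higher against control or passed between a combination and a single drug.

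**Figure D5:**
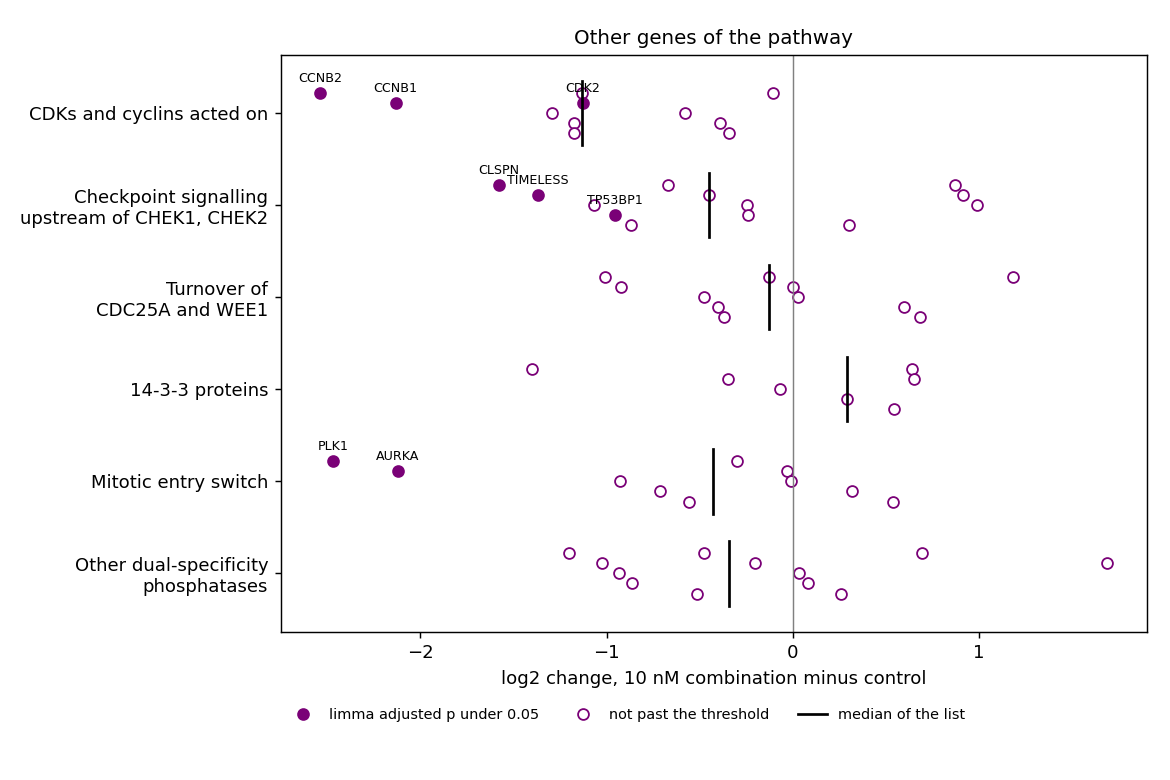
Log2 change under the 10 nM combination against control for each measured gene of 6 lists (points; filled where the limma adjusted p is under 0.05) with the list's median (vertical bar). The filled points, from TP53BP1 at -0.96 to CCNB2 at -2.54, all lie below zero and fall in 3 of the lists.

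Over the 17 arrays, the genes with the pattern most like that of CDC25A were MCM2, CDC45, MCM5, GINS2, MCM4 and CENPM. Likeness is the root mean square difference between the log2 levels of 2 genes after each is centred on its own mean, and it was 0.229 for MCM2 and 0.260 for CENPM, against a median of 0.984 over all genes. Their log2 differences from control were between -2.01 (GINS2) and -2.40 (CDC45) under the 1 nM combination, where CDC25A had -2.36. These 6 were picked as the nearest to CDC25A with the family left out, so their greater likeness follows from the choice. In the family, CDC25C was closest at 0.479, position 45 of all 19775 genes. Then came CDC25B at 0.602 (position 175), PKMYT1 at 0.643 (283) and CHEK1 at 0.697 (456). WEE1 at 0.771 (1011) and CHEK2 at 0.814 (1525) were last, and all of these lay under the median over all genes. The gene most like CDC25B was TONSL (0.133), and those for CDC25C, WEE1, PKMYT1, CHEK1 and CHEK2 were SKA3 (0.186), RFC4 (0.218), SAPCD2 (0.201), DONSON (0.233) and TUBB3 (0.211). These values describe arrays that share 6 treatments and carry no test.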

How the data were processed

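Expression in 17 samples of L363 cells was measured on oligonucleotide arrays, 1 array per sample. The authors deposited log2 signal values per probe set. Per the submitters' processing notes, affy and RMA produced them; their versions: not given in the sources used here. RMA models probe brightness and sets array distributions alike, which can compress differences of dim probe sets. Without detection calls, dim probe sets could not be judged against background, and 2 or 3 arrays a group limit the precision. Arrays were grouped by their titles and source names.

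The table holds 54613 probe sets, of which 41091 carry 1 gene symbol, 1801 several and 11721 none; 41037 matched a RefSeq gene table by Entrez ID. The brightest singly named probe set stood for each of 19775 genes. The deposited values were fitted by limma (version 3.58.1, lmFit then eBayes, under R 4.3.3), with 6 group means in 1 model and no further normalization, and were tested on simulated data first. The members, lists and tests were chosen with earlier results of these data known. Genes named are the members, up to 3 genes per list, lowest adjusted p first, under the 10 nM combination, the 6 most like CDC25A and 1 for each other member. CDK1 and DUSP4 were named after their values were seen. The replicate numbers come from the titles. Same-numbered arrays deviated together (every correlation over 0.1, from 0.286 to 0.853) in 7 of 10 pairs of groups with 3 shared numbers. This pairing was seen in the data and is not stated in the labels. Replicate 1 of 10 nM rapamycin went against it, at -0.16, -0.34 and -0.19 with control, MS275 and the 1 nM combination. Replicate 2 of the 10 nM combination gave -0.66, -0.74, -0.63 and -0.35 with MS275, 1 nM rapamycin, 10 nM rapamycin and the 1 nM combination. Its replicate 1 gave 0.069 to 0.39. Alternatives were the replicate block, array weights, quantile or median scaling, a trended prior, a signal filter at a mean of 5, other probe sets, fewer groups and leaving out each array or both narrow arrays. The non-overlap count was added after seeing the data.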

Additional observations from a re-analysis of the deposited data

Results flagged for a closer look

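In 2 results the mean differences had opposite signs in matched pairs of groups, with 1 difference of each pair smaller than its standard error. CHEK1 on adding 10 nM in place of 1 nM rapamycin had a log2 difference of 0.06 with MS275 and -0.55 without it, and the effects without and with MS275 differ by -0.612. Without MS275 all 10 nM arrays lay below all 1 nM arrays, and with MS275 the doses overlapped. CHEK2 on adding MS275 had a log2 difference of 0.34 at 1 nM rapamycin and -0.08 at 10 nM, which differ by 0.419. Without the narrow arrays, the CHEK1 difference with MS275 was -0.35, the same sign as without MS275, and that of CHEK2 at 1 nM was 0.15. On the CHEK1 probe sets 205394_at and 205393_s_at both signs were also the same, at -0.09 and -0.25 with MS275 and -0.94 and -0.64 without it. The difference between these effects was not tested for either gene.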

How the results depend on the processing

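The counts below are of the 6 tested genes past the threshold against control. Under MS275 the count was 0, but 1 with the replicate block, 2 with array weights, 1 after quantile normalization, and 0 to 1 on leaving out each array. The share of all genes that fell was 1.26% with the block, 3.7% with weights and 0.571% after quantile normalization. Under 1 nM rapamycin the count was 0, but 1 with the block, 6 with weights, 1 after quantile normalization, and 0 to 1 on leaving out each array. Here the share of all genes was 0.455%, 9.52% and 0.162% with the block, with weights and after quantile normalization. Under 10 nM rapamycin the count was 1, but 2 without both narrow arrays, 6 with weights, 0 with the compared groups only, and 0 to 1 on leaving out each array. Its share of all genes was 0.657% without both narrow arrays and 6.84% with weights. Under the 1 nM combination the count was 3, but 5 with the block, 6 with weights, 4 without both narrow arrays, 2 after quantile normalization, 0 with the compared groups only, and 1 to 4 on leaving out each array, with 1 without control replicate 3 or without its own replicate 3. Its share of all genes was 2.98% with the block, 4.08% with weights, 1.96% without both narrow arrays and 1.59% after quantile normalization. Under the 10 nM combination the count was 4, but 2 after subtracting array medians, 2 with a trended prior, 6 with weights, 5 without both narrow arrays, 3 after quantile normalization, 3 with the probe sets of largest interquartile range, 0 with the compared groups only, and 1 to 4 on leaving out each array, with 1 without its own replicate 2 and 2 without control replicate 3, MS275 replicate 1, 1 nM rapamycin replicate 1 or 3, 10 nM rapamycin replicate 3, 1 nM combination replicate 3 or its own replicate 1. The share of all genes that fell under the 10 nM combination was 1.89% after subtracting array medians, 1.65% with a trended prior and 5.3% with weights. It was 3.18% without both narrow arrays, 1.94% after quantile normalization and 2.26% with the probe sets of largest interquartile range. With the compared groups only, fewer arrays estimate the spread, and 0% of all genes fell against control under any treatment. With weights each rapamycin dose and each combination thus had all 6 genes past the threshold. Array weights also raised the share of all genes that fell, to between 3.7% and 9.52%. The block changed no other of these counts, and the count between combinations and single drugs, between doses and for interactions was 0 under every alternative.

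Signs turned in the following cases, and the cause was not tested. For CDC25A these were the dose difference on 204696_s_at (0.21) and on leaving out each array (-0.32 to 0.027), the interaction at 1 nM with array weights (0.0064) and on 204696_s_at (0.91), and the interaction at 10 nM on 204696_s_at (0.65) and on 1555772_a_at, also its probe set with the largest interquartile range (0.24). CDC25C on 216914_at gave 0.017 for the 1 nM combination against 1 nM rapamycin and 0.00096 for the 10 nM combination against 10 nM rapamycin. Under 1 nM rapamycin WEE1 gave 0.041 after subtracting array medians and -0.58 to 0.23 on leaving out each array. Between the 10 nM combination and 10 nM rapamycin, leaving out each array gave -0.36 to 0.048 for WEE1 and -0.59 to 0.18 for PKMYT1, and CHEK2 gave 0.045 with weights. Under MS275, leaving out each array gave -0.55 to 0.19 for CHEK1 and -0.22 to 0.14 for CHEK2. CHEK1 on 229423_at gave 0.12, 0.072, 0.056, 0.025 and 0.12 against control (MS275, 1 and 10 nM rapamycin, 1 and 10 nM combination) and 0.063 for the 10 nM combination against 10 nM rapamycin. Between rapamycin doses, leaving out each array gave -0.29 to 0.15 for CDC25B, -0.54 to 0.028 for PKMYT1 and -0.10 to 0.12 for CHEK2, CHEK2 gave 0.00078 after quantile normalization and WEE1 0.020 on 215711_s_at. Between combination doses, leaving out each array gave -0.71 to 0.0069 for CDC25B, -0.040 to 0.72 for WEE1, -0.35 to 0.43 for PKMYT1 and -0.35 to 0.28 for CHEK1. Without both narrow arrays WEE1 gave -0.040, PKMYT1 -0.084 and CHEK1 -0.35, and PKMYT1 gave -0.069 with the block. WEE1 gave -0.34 on 215711_s_at, and CHEK1 gave -0.25 with weights, -0.089 on 205394_at (also its probe set of largest interquartile range) and -0.25 on 205393_s_at. The 1 nM interaction was 0.28 without both narrow arrays, 0.30 with weights and 0.86 on 215711_s_at for WEE1, and 0.064 without both narrow arrays and 0.0059 with weights for CHEK1. For PKMYT1 it was -0.063 after subtracting array medians and -0.17 to 0.34 on leaving out each array. The 10 nM interaction on leaving out each array was -0.13 to 0.69 for WEE1, -0.037 to 0.74 for PKMYT1, -0.48 to 0.26 for CHEK1 and -0.22 to 0.15 for CHEK2. Without both narrow arrays it was 0.26 for CHEK1 and 0.11 for CHEK2, with weights 0.30 and 0.41, on 205393_s_at 0.13 for CHEK1, and with the block 0.075 and after quantile normalization 0.050 for CHEK2. Subtracting array medians moved the median of all genes by over 0.1 for the 1 nM interaction (0.16 as deposited, 0.018 after) and for the 1 nM combination against 1 nM rapamycin (0.12 as deposited, -0.0042 after).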
